A study of Mus musculus with 12 samples.

Results

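The comparison of Alport syndrome (AS) with wild type (WT) in the dim tdT cells asked which genes differ with genotype in the glomerular cells that carry a weak tdTomato (tdT) signal. It rests on 6 of the 12 RNA-seq libraries of the study, 3 AS-dim and 3 WT-dim, which were chosen as the raw count columns of the dim tdT table, and the other 6 libraries hold the bright tdT cells of the same mice. All mice were on the C57BL/6 strain, were 4 months old and carried the TekCre and tdTomato reporter alleles. The WT mice had no further mutation in the labels, and the AS mice were labelled Col4a5 -/-. Per the study's methods the AS line was Col4a5 tm1Yseg, the Cre was driven by the Tek promoter and the reporter sat at ROSA26. Glomeruli were caught on a sieve from minced renal cortex and digested, and the cells were sorted by the brightness of tdT. Each library came from 1 mouse, so that p-values measure the spread between 3 mice of a genotype. The promoter of Tek limits the model in that the reporter follows every lineage in which Tek was once active.

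Type IV collagen is the network protein of basement membranes. In the mature glomerulus its α3, α4 and α5 chains, made mainly by podocytes, assemble into a shared network, and loss of any of them causes Alport syndrome, in which the filter thins, splits and scars. Glomerular endothelial cells (GEC) line the capillary side of that membrane with fenestrae, a glycocalyx and the receptors of VEGF and angiopoietin, of which Tek is one. Tek-Cre is also active in precursors of blood cells, so its reporter can mark leukocytes as well as endothelium.

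The dim tdT table listed 17811 genes, and 14637 of them had enough counts to be tested. The 6 libraries held 11440169 to 13923267 counts on genes. Values per library are given in the order of replicates 1, 2 and 3 as CPM, the counts of a gene per 1e+06 counts of the library after TMM scaling. At an adjusted p under 0.05 (from the quasi-likelihood test of edgeR, adjusted by Benjamini-Hochberg over all genes tested, as throughout) 1263 genes, 8.63% of those tested, differed between the genotypes. Of these, 324 were higher in AS (2.21% of genes tested) and 939 were lower (6.42%). Counts within gene lists are to be read beside these shares. The lower genes moved further, with a median log2 fold change of -2.74 against 1.28 for the higher genes, while the median of all genes tested was -0.02. In all 1263 called genes the values of WT and AS did not overlap, and the same held for 4567 of all 14637 genes tested. The AS libraries resembled each other more than the WT libraries did, with mean correlations of log2 CPM across genes of 0.938 to 0.947 within AS and 0.884 to 0.896 within WT. Counts on the mitochondrial chromosome made up 9.04% to 13.3% of the WT and 3.58% to 8.22% of the AS libraries.

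The calls rested on single libraries. Without AS-dim 1 no gene passed (smallest edgeR-adjusted p = 0.0599, 2972 genes at an unadjusted p under 0.05) and without AS-dim 3 only 1 gene did, Plat (smallest edgeR-adjusted p = 0.0421, 3016 genes at an unadjusted p under 0.05). Without AS-dim 2, WT-dim 1, WT-dim 2 or WT-dim 3 the number was 484, 786, 800 and 1825. The fit with 6 libraries had 3844 genes at an unadjusted p under 0.05. The 111 called genes whose values are given had the same sign in all 6 fits that left out a library. Of them 60 passed without AS-dim 2, 70 without WT-dim 1, 66 without WT-dim 2 and 97 without WT-dim 3, while Itga5, Ccr6, Ighg1, Ciita, Psmb8, Casp1, C4b, Cdca8 and Rpl13 passed in none of the 6. With the mean log2 CPM of the pan-leukocyte, proximal tubule or endothelial markers as a covariate 41, 1 and 0 genes passed. The bars of genes called under each fit show how far the totals moved.

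**Figure D1:**
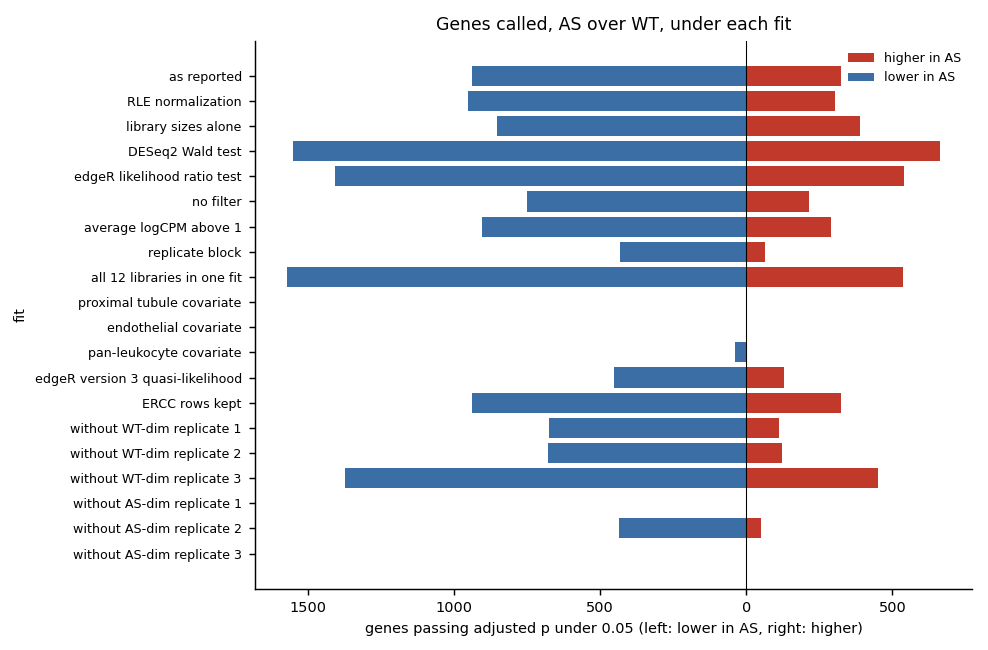
Number of genes with an adjusted p under 0.05 for AS over WT in the dim tdT cells, under the fit reported and under each alternative, with genes lower in AS drawn to the left in blue and genes higher in AS to the right in red. The fit reported has 324 higher and 939 lower genes, and the fits without AS-dim 1 or AS-dim 3 have 0 and 1 in all.

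Col4a5, the gene mutated in the AS line (chromosome X, 141475385 to 141689234, plus strand of GRCm38, overlapped by Gm15268 on the same and Gm15282 on the opposite strand), had 68.5, 37.1 and 73.04 CPM in WT and 3.52, 1.95 and 1.33 CPM in AS. All AS libraries lay far below all WT libraries, and the labels name the mutation but no RNA level. The difference was 25.8-fold, with a log2 fold change of -4.69 (SE 0.45, edgeR-adjusted p = 0.00982), and it had an adjusted p of 0.0599 without AS-dim 1 and 0.0968 without AS-dim 3. The gene is transcribed by podocytes, and of 12 podocyte markers, described further on, 4 fell, 1 rose and 7 did not pass. The partner chains fell as well, Col4a3 from 55.4, 58.9 and 44.7 CPM to 13.9, 16.1 and 13.8 CPM (log2 fold change -1.86, edgeR-adjusted p = 0.0172) and Col4a4 from 181, 227 and 236 CPM to 43.5, 56.4 and 26.2 CPM (log2 fold change -2.35, edgeR-adjusted p = 0.0166). In the bright tdT libraries of the same mice, normalized on their own, Col4a5 averaged 6.95 CPM in WT-bright and 4.56 CPM in AS-bright. The difference there did not pass (log2 fold change -0.60, edgeR-adjusted p = 0.495). The part of podocyte RNA in the fall of Col4a5 was not tested, and in bulk RNA fewer cells of a type and less RNA per cell cannot be told apart. Ddx3y, a gene of the Y chromosome, was read at 47.8 to 83.9 CPM in the 6 libraries.

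The label of the cells, glomerular endothelial cells, was set against markers of endothelium and of blood cells. All 10 pan-leukocyte markers were read in every library. Ptprc, the common leukocyte antigen CD45, had 707, 837 and 1108 CPM in WT and 1331, 1276 and 1415 CPM in AS, against means of 3.12 CPM in WT-bright and 4.62 CPM in AS-bright, where the bright tdT libraries were normalized separately. Tek went the other way between the sorts, with 19.9, 17.1 and 10.3 CPM in WT and 2.97, 2.51 and 2.26 CPM in AS against means of 198 CPM in WT-bright and 251 CPM in AS-bright. The pan-leukocyte markers summed to 8915, 7638 and 12472 CPM in WT and 13102, 12576 and 13149.5 CPM in AS. The 19 endothelial markers tested were all read in the 6 libraries too. The sum of all 20 listed was 1474, 1638 and 894 CPM in WT and 264, 343 and 355 CPM in AS. The dim tdT libraries of both genotypes held leukocyte RNA beside endothelial RNA, so the label holds for only some of their RNA. None of the 10 pan-leukocyte markers passed the test, and their median log2 fold change was 0.48, with all 10 above 0. Without WT-dim 3, the WT library with the highest pan-leukocyte sum, 6 of them passed as higher (median 0.73), none did without any other library, and DESeq2 called 2.

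**Figure D2:**
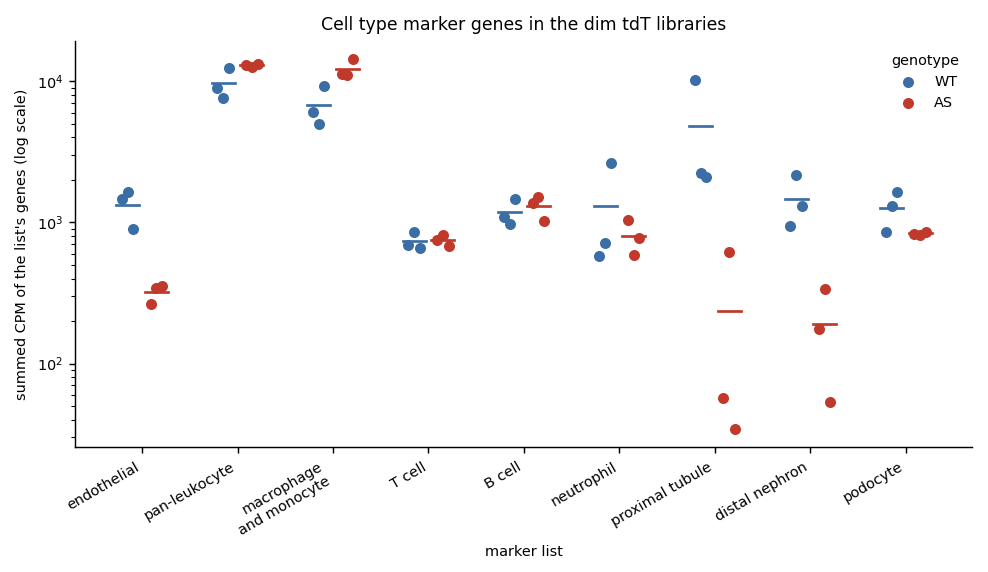
Summed CPM, on a log scale, of the genes of each cell type marker list in the 3 WT-dim (blue) and 3 AS-dim (red) libraries, with a bar at each group's mean. Groups can be compared within a list, while sums of different lists hold genes of different number and length. The endothelial, proximal tubule and distal nephron sums of the AS libraries all lie below those of the WT libraries, and the pan-leukocyte and macrophage sums all lie above.

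Endothelial genes were lower in the AS-dim libraries, and Tek, Kdr and Emcn fell 6.06-, 6.79- and 7.38-fold. Of the 19 endothelial markers tested, 11 fell, none rose, and the median log2 fold change was -2.22, where 6.42% of all genes fell and their median was -0.02. Tek (chromosome 4, 94739289 to 94874976, plus strand), the angiopoietin receptor whose promoter drives the Cre, averaged 15.8 ± 4.93 CPM (SD, n = 3) in WT and 2.58 ± 0.356 CPM (SD, n = 3) in AS and its log2 fold change was -2.60 (SE 0.44, edgeR-adjusted p = 0.0215). Emcn (chromosome 3, 137341067 to 137432185, plus strand), the sialomucin endomucin of capillary endothelium, had 344, 307 and 224 CPM in WT and 28.7, 41.3 and 48.7 CPM in AS, a 7.38-fold fall (log2 fold change -2.88, SE 0.27, edgeR-adjusted p = 0.00982). Kdr, the main signalling receptor of VEGF-A, had 160.5, 166 and 108 CPM in WT and 15.7, 26.7 and 21.7 CPM in AS (log2 fold change -2.76, edgeR-adjusted p = 0.012). In these genes the highest AS library lay below the lowest WT library by a wide margin. Ptprb, the phosphatase that damps Tek and junctional cadherin, had 196, 204 and 104 CPM in WT and 17.4, 28.1 and 19.4 CPM in AS (log2 fold change -2.96, edgeR-adjusted p = 0.0142). Eng, the TGF-beta co-receptor endoglin, had 80.7, 84.9 and 50.5 CPM in WT and 11.6, 17.02 and 18.1 CPM in AS (log2 fold change -2.21, edgeR-adjusted p = 0.0179). Sox17, a transcription factor of arterial endothelium, was low throughout at 11.5, 13.5 and 4.33 CPM in WT and 0.414, 1.05 and 1.64 CPM in AS (log2 fold change -3.25, edgeR-adjusted p = 0.0293). Ehd3, an endocytic protein typical of glomerular endothelium, fell less, with 273, 409 and 125 CPM in WT and 50.5, 83.4 and 93.6 CPM in AS (log2 fold change -1.83, edgeR-adjusted p = 0.0384).

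Some endothelial markers did not pass. Pecam1, which encodes the junction protein CD31, had 100.5, 98.2 and 50.1 CPM in WT and 46.003, 52.2 and 32.7 CPM in AS and the groups overlapped through WT-dim 3 (log2 fold change -0.93, edgeR-adjusted p = 0.11). Flt1, the decoy receptor of VEGF, had 67.6, 114 and 58.9 CPM in WT and 44.6, 40.1 and 60.3 CPM in AS with overlap as well (edgeR-adjusted p = 0.173). Vwf, the clotting factor stored in larger vessels and platelets, had 6.401, 10.1 and 9.83 CPM in WT and 10.8, 9.08 and 10.1 CPM in AS, the only tested marker of the list with a log2 fold change above 0, at 0.18 (edgeR-adjusted p = 0.793). Pecam1, Flt1 and Vwf are known from leukocytes or platelets as well, and they were picked out after their values were seen. With WT-dim 1, WT-dim 2, WT-dim 3 or AS-dim 2 left out, the number of endothelial markers that fell was 7, 8, 15 and 7. It was 0 without AS-dim 1 and 0 without AS-dim 3, with medians of -2.09 and -2.24. With the pan-leukocyte markers as a covariate none passed and the median was -1.43. All 10 pan-leukocyte markers had positive log2 fold changes, so covariate and genotype cannot be told apart in full.

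The genes with the smallest adjusted p among those lower in AS held further genes known from endothelium that stood on no list. Plat, tissue plasminogen activator, is secreted by endothelium to dissolve fibrin. It had 677, 589 and 614 CPM in WT and 87.9, 87.5 and 123 CPM in AS, a 6.30-fold fall with little spread between mice (log2 fold change -2.65, SE 0.20, edgeR-adjusted p = 0.00747). Aif1l, a gene of podocytes and other renal cells related to the macrophage gene Aif1, had 185, 194 and 161 CPM in WT and 30.3, 34.5 and 33.02 CPM in AS (SE 0.19, log2 fold change -2.46, edgeR-adjusted p = 0.00747). Plat and Aif1l shared the smallest adjusted p of all genes. Epas1, the hypoxia-inducible factor HIF-2α, had 642, 667 and 421 CPM in WT and 118, 108 and 109 CPM in AS (log2 fold change -2.37, edgeR-adjusted p = 0.00982). Tm4sf1, a membrane protein of endothelial nanopodia, had 701, 569.5 and 442 CPM in WT and 129, 89.5 and 104 CPM in AS (log2 fold change -2.41, edgeR-adjusted p = 0.00982). In both genes every AS value was far below the lowest WT value. Ly6c1, carried by microvascular endothelium and monocytes, had 271, 223 and 133 CPM in WT and 20.3, 21.3 and 26.6 CPM in AS (log2 fold change -3.20, edgeR-adjusted p = 0.00982). Exoc3l2, an exocyst component involved in trafficking of VEGF receptors, had 278, 204 and 169 CPM in WT and 26.3, 37.4 and 23.97 CPM in AS (log2 fold change -2.89, edgeR-adjusted p = 0.00982). The homeobox factor Meis2 had 104, 78.8 and 96.9 CPM in WT and 13.04, 18.3 and 19.2 CPM in AS (log2 fold change -2.47, edgeR-adjusted p = 0.012). None of these genes passed without AS-dim 1, and only Plat passed without AS-dim 3 (edgeR-adjusted p = 0.0421).

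Caveolae are flask-shaped pits of the endothelial surface, and genes for their coat were lower in AS. Of 10 genes for caveolae, fenestrae and EHD proteins 5 fell and none rose, with a median log2 fold change of -1.44. Cav1, the coat protein caveolin-1, had 32.1, 40.7 and 10.4 CPM in WT and 3.66, 2.84 and 1.41 CPM in AS (10.4-fold lower, log2 fold change -3.38, edgeR-adjusted p = 0.023). Its partner Cavin2, which shapes the coat, had 51.6, 43.6 and 25.8 CPM in WT and 3.72, 6.97 and 4.68 CPM in AS (log2 fold change -2.98, edgeR-adjusted p = 0.0175). Cavin3, of the same family, had 25.5, 20.01 and 6.75 CPM in WT and 1.72, 1.78 and 3.75 CPM in AS (log2 fold change -2.85, edgeR-adjusted p = 0.0336). WT-dim 3 was the lowest WT library in all of these, yet it stayed above every AS library. In fits without WT-dim 1, WT-dim 2, WT-dim 3 or AS-dim 2 the number that fell was 2, 2, 7 and 1, and it was 0 without AS-dim 1 and without AS-dim 3.

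Among 21 genes of VEGF, angiopoietin and Notch signalling, 4 fell and none rose (median -0.74). Beside the receptors Kdr and Tek these included the ligand Vegfd, which acts on lymphatic and blood endothelium, with 22.4, 22.03 and 8.83 CPM in WT and 3.52, 1.05 and 2.81 CPM in AS (log2 fold change -2.82, edgeR-adjusted p = 0.0274). Nrp1, the VEGF co-receptor neuropilin-1 and the gene of the list with the highest mean count, had 196, 231 and 107 CPM in WT and 68.4, 72.6 and 97.2 CPM in AS and did not pass (log2 fold change -1.17, edgeR-adjusted p = 0.0518). Of 11 adhesion molecules 2 fell, Icam2 from 91.8, 59.7 and 89.7 CPM to 29.9, 33.5 and 27.6 CPM and the junctional protein Jam3 from 59.3, 30.5 and 17.6 CPM to 4.41, 4.38 and 9.21 CPM (edgeR-adjusted p = 0.0219 and 0.0296). Leaving out WT-dim 1, WT-dim 2, WT-dim 3 or AS-dim 2 gave 3, 2, 9 and 2 lower genes in the signalling list and 1, 1, 3 and 0 among the adhesion molecules. No member of either list passed without AS-dim 1 or AS-dim 3.

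Basement membrane genes were lower in AS. Of the 22 tested 9 fell and 0 had a log2 fold change above 0, and the median was -1.53. The glomerular chains Col4a5, Col4a4 and Col4a3 were given above. Col4a1, a chain of most other basement membranes, had 34.6, 33.5 and 20.1 CPM in WT and 12.2, 6.405 and 13.9 CPM in AS, and its partner Col4a2 had 15.6, 12.2 and 9.08 CPM in WT and 6.28, 6.08 and 5.46 CPM in AS. Both were without overlap between the genotypes but short of the threshold (log2 fold change -1.43 and -1.04, edgeR-adjusted p = 0.0563 and 0.124). Col4a6, which pairs with α5 outside the glomerular filter, was low and overlapped, at 0.356, 4.64 and 11.8 CPM in WT and 7.38, 2.84 and 2.26 CPM in AS (edgeR-adjusted p = 0.806). Hspg2 (chromosome 4, 137468769 to 137570630, plus strand), the heparan sulphate proteoglycan perlecan, had 17.5, 21.7 and 15.8 CPM in WT and 3.45, 3.81 and 2.89 CPM in AS (log2 fold change -2.44, SE 0.37, edgeR-adjusted p = 0.0197). All AS values of perlecan lay within a narrow band below the lowest WT value. Sparc, a matricellular protein that binds collagen, had 192, 373 and 197 CPM in WT and 92.6, 77.3 and 86.97 CPM in AS (log2 fold change -1.57, edgeR-adjusted p = 0.023). Lama3, a laminin chain of epithelium, had 15.9, 3.88 and 8.58 CPM in WT and 0, 0.243 and 1.64 CPM in AS (log2 fold change -3.93, edgeR-adjusted p = 0.0368), with 0 counts in AS-dim 1. Without WT-dim 1, WT-dim 2, WT-dim 3 or AS-dim 2 the number of the list that fell was 8, 7, 13 and 6. Without AS-dim 1 or AS-dim 3 none passed and the medians were -1.70 and -1.50. Col4a1 to Col4a4 and Col4a6 were named after their values were seen, so that the whole α-chain family could be given.

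Podocyte markers were read in these libraries, although the sort, per the study's methods, gated out debris and doublets, and most of those that passed were lower in AS. In its section on WT mice the study reported by flow cytometry that nearly all cells of both sorts carried Ehd3 protein and almost none WT1. Those protein data were not analysed here. Of 12 podocyte markers 4 fell, 1 rose, and the median was -1.34. Podxl, the podocalyxin that coats podocyte feet and also endothelium, had 201, 304 and 291 CPM in WT and 82.7, 71.7 and 54.02 CPM in AS (log2 fold change -1.93, edgeR-adjusted p = 0.0169). Wt1, the transcription factor of podocytes, had 32.7, 78.9 and 81.3 CPM in WT and 16.97, 15.97 and 17.1 CPM in AS (log2 fold change -1.95, edgeR-adjusted p = 0.0243). The AS libraries were close to each other in Wt1, and WT-dim 1 was the lowest WT library in both genes. The sum of the list was 857, 1298 and 1632 CPM in WT and 831, 817 and 855 CPM in AS, and the highest AS library lay just below the lowest WT library. Once WT-dim 1, WT-dim 2, WT-dim 3 or AS-dim 2 was left out, the number that fell was 6, 2, 4 and 1 and the number that rose 0, 0, 1 and 0. The rise also missed the threshold under RLE scaling and with no filter, and no podocyte marker passed without AS-dim 1 or AS-dim 3. Mesangial and mural markers, 8 of which were tested, gave no call and a median of -0.99, with 2 lower calls without WT-dim 3.

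The largest falls of any marker group were in genes of the renal tubule, cells that lie outside the glomerulus. All 20 proximal tubule markers had negative log2 fold changes, 11 passed, and the median was -4.28. With the version 3 form of the quasi-likelihood test 1 passed (median -4.25). Their sums differed widely between mice of one genotype, 10137, 2244 and 2081 CPM in WT and 57.1, 613 and 34.4 CPM in AS, with the most in WT-dim 1 and with AS-dim 2 above the other AS libraries. Kap (chromosome 6, 133849851 to 133853762, minus strand), the kidney androgen-regulated protein of the proximal tubule, had 1689, 365 and 185 CPM in WT and 6.48, 28.1 and 2.03 CPM in AS, a 61.7-fold fall (log2 fold change -5.95, SE 1.13, edgeR-adjusted p = 0.0244). Slc22a6 (chromosome 19, 8618039 to 8628299, plus strand), the organic anion transporter of the basolateral side, had 424, 113 and 77.4 CPM in WT and 2.14, 17.6 and 0.312 CPM in AS (log2 fold change -4.96, edgeR-adjusted p = 0.0333). Slc27a2, a fatty acid transporter and acyl-CoA synthetase, had 318, 71.3 and 103 CPM in WT and 0.552, 15.7 and 0.3903 CPM in AS (log2 fold change -4.92, edgeR-adjusted p = 0.0341). AS-dim 2 was the highest AS library in each of these genes. Slc34a1, the sodium phosphate cotransporter and the marker with the highest mean count, had 2245, 456 and 529 CPM in WT and 10.001, 168 and 5.31 CPM in AS and did not pass (log2 fold change -4.15, edgeR-adjusted p = 0.0799).

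Distal nephron markers fell as well, 8 of 13 tested (2 with version 3), with a median of -2.84. The 16 markers present in the dim tdT table summed to 940.0, 2176 and 1299.6 CPM in WT and 177, 339 and 53.1 CPM in AS. Umod, the uromodulin of the thick ascending limb, had 113, 205 and 116 CPM in WT and 18.1, 26.3 and 1.17 CPM in AS (log2 fold change -3.25, edgeR-adjusted p = 0.0359), and its neighbour in function Slc12a1, the sodium potassium chloride cotransporter, had 42.6, 22.8 and 23.99 CPM in WT and 3.03, 3.57 and 0.156 CPM in AS (log2 fold change -3.71, edgeR-adjusted p = 0.0208). Slc12a3, the thiazide-sensitive cotransporter of the distal convoluted tubule, had 332, 866 and 588 CPM in WT and 67.7, 137 and 25.5 CPM in AS (log2 fold change -2.96, edgeR-adjusted p = 0.0269), and Pvalb, a calcium-binding protein of that segment, had 16.003, 42.7 and 10.9 CPM in WT and 0.828, 2.84 and 0 CPM in AS (log2 fold change -4.27, edgeR-adjusted p = 0.0277). WT-dim 2 was the highest library in Umod, Slc12a3 and Pvalb, whereas WT-dim 1 was the highest in Slc12a1 and in the proximal genes named above. With WT-dim 1, WT-dim 2, WT-dim 3 or AS-dim 2 left out, the proximal list had 6, 3, 13 and 19 lower calls and the distal list 8, 1, 8 and 7. Neither list had any without AS-dim 1 or AS-dim 3. With the mean log2 CPM of the proximal tubule markers as a covariate 1 gene in the whole table passed, higher in AS. The median of the proximal list itself, -0.05 in that fit, is not informative, since the covariate was the mean of the same genes. Whether tubule cells were carried into the sort to a different degree in WT and AS was not tested.

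Promoters of the proximal tubule list are shown because the list moved together and tubule genes share a known regulator, HNF1, whose binding site holds the core GTTAAT. RefSeq promoters of GRCm38.p6, from 250 bases before to 50 bases after the start, were found for 18 of the 20 listed genes. GTTAAT, read on both strands, lay in 7 of these 18 (38.9%) and in 7.2% of the 27025 genes with a promoter of the same length. Capitals mark the core, which reads ATTAAC when it lies on the other strand. Slc22a6 lies at chr19:8617746-8618045 on the plus strand with 1 match that begins 56 bases before the start, and Slc34a1 at chr13:55399398-55399697 on the plus strand with matches 89 and 61 bases before it. Kap and Slc27a2 had none in this window. A match is a description of letters and no binding was measured.
Slc22a6: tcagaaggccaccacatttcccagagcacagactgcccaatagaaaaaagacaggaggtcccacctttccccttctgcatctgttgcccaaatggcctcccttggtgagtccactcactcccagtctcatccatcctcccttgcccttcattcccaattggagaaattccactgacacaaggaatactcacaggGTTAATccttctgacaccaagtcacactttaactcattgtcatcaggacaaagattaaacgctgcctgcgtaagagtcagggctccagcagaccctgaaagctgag
Slc34a1: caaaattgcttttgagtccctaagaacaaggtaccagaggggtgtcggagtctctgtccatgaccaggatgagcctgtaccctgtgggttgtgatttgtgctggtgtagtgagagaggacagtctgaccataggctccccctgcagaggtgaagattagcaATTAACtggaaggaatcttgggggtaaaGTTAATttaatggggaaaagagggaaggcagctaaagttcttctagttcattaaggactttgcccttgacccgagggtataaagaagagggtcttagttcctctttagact

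Genes of mitochondrial energy production were lower in AS along with the tubular markers. Of 37 nuclear genes of complex I, 8 fell and all had negative log2 fold changes (median -0.96). For complexes II and III 6 of 13 fell (median -1.11), for complex IV 4 of 11 (median -0.93) and for the ATP synthase 4 of 15 (median -0.73). Not one gene of these lists rose. Ndufa8 of complex I had 279, 172 and 179 CPM in WT and 50.7, 84.7 and 62.1 CPM in AS (log2 fold change -1.68, edgeR-adjusted p = 0.0206), and Ndufa4, listed with complex I and found in complex IV, had 245, 143 and 106 CPM in WT and 42.7, 53.8 and 50.4 CPM in AS (log2 fold change -1.75, edgeR-adjusted p = 0.023). Uqcrq of complex III had 150.2, 84.9 and 104 CPM in WT and 28.002, 27.8 and 39.9 CPM in AS (log2 fold change -1.82, edgeR-adjusted p = 0.0199) and Cox6c of complex IV had 316, 260.0 and 186 CPM in WT and 70.3, 86.7 and 95.9 CPM in AS (log2 fold change -1.59, edgeR-adjusted p = 0.0197). Atp5g1, the c-ring of the synthase, had 78.1, 62.4 and 72.5 CPM in WT and 20.001, 21.6 and 30.8 CPM in AS (log2 fold change -1.56, edgeR-adjusted p = 0.0206). In these subunits every AS mouse lay below every WT mouse, as the groups were without overlap in every called gene.

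Transcripts of the mitochondrial genome were lower as well, with 6 of 12 called lower and a median of -1.88. This count rested on the settings, since 0 passed with no filter on low counts and 0 with the version 3 form of the quasi-likelihood test. mt-Co1, the catalytic subunit of complex IV, had 16399, 12319 and 11489 CPM in WT and 2853, 7560.5 and 2744 CPM in AS (log2 fold change -1.61, edgeR-adjusted p = 0.0454), mt-Co3 of the same complex had 269, 176 and 218 CPM in WT and 19.3, 82.5 and 15.8 CPM in AS (log2 fold change -2.50, edgeR-adjusted p = 0.0403) and mt-Nd4 of complex I had 2909.9, 2045 and 1774 CPM in WT and 305, 1055 and 291 CPM in AS (log2 fold change -2.03, edgeR-adjusted p = 0.0455). AS-dim 2 stood above the other AS libraries in each, as it did for the proximal tubule markers. In fits without WT-dim 1, WT-dim 2, WT-dim 3 or AS-dim 2 the numbers called lower were 5, 7, 8 and 2 for complex I, 4, 4, 10 and 2 for complexes II and III, 2, 5, 4 and 1 for complex IV, 3, 3, 5 and 1 for the ATP synthase and 0, 0, 4 and 9 for the mitochondrial transcripts. None passed without AS-dim 1 or AS-dim 3. With the proximal tubule markers as a covariate no gene of these lists passed and the median of the mitochondrial transcripts was -0.12, while that of complex I was -0.68. Since the proximal tubule sums moved in the same libraries, genotype and tubular RNA cannot be told apart in full.

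Other metabolic lists held calls too. In the tricarboxylic acid cycle 6 of 21 fell (median -0.75). Idh2, the mitochondrial isocitrate dehydrogenase, had 125, 85.9 and 70.1 CPM in WT and 16.1, 25.9 and 15.5 CPM in AS (log2 fold change -2.29, edgeR-adjusted p = 0.0179). Suclg2 had 153, 72.8 and 79.9 CPM in WT and 17.5, 31.3 and 16.5 CPM in AS (log2 fold change -2.23, edgeR-adjusted p = 0.0217), and Mdh2, the malate dehydrogenase of mitochondria, had 3196, 2077 and 2333 CPM in WT and 1309, 1425 and 1112 CPM in AS (log2 fold change -0.98, edgeR-adjusted p = 0.0294). For fatty acid oxidation 6 of 23 fell and 1 rose (median -0.84). Ehhadh, an enzyme of the peroxisome, had 11.6, 5.23 and 3.998 CPM in WT and 0.06897, 0.649 and 0.234 CPM in AS (log2 fold change -4.47, edgeR-adjusted p = 0.0197). The gene that rose was Slc25a20, the carnitine carrier, from 54.1, 68.7 and 65.3 CPM to 124, 109.5 and 105 CPM (log2 fold change 0.85, edgeR-adjusted p = 0.038). Of 22 lipid handling genes 4 fell and 1 rose (median -0.14). Apom, an apolipoprotein made by the proximal tubule, had 400.4, 88.6 and 31.2 CPM in WT and 0.345, 13.3 and 1.25 CPM in AS (log2 fold change -5.17, edgeR-adjusted p = 0.042), and Lpl, the lipase that works on the endothelial surface, had 1113, 904 and 783 CPM in WT and 207, 185 and 142 CPM in AS (log2 fold change -2.39, edgeR-adjusted p = 0.00982). Apoe, which macrophages secrete, rose from 72.01, 63.5 and 66.2 CPM to 150.2, 103 and 153 CPM (log2 fold change 1.01, edgeR-adjusted p = 0.0317). Glycolysis had 2 lower calls among 18 genes and a median of 0.12, with Tpi1 at 727, 117 and 188 CPM in WT and 72.004, 48.2 and 48.9 CPM in AS (log2 fold change -2.61, edgeR-adjusted p = 0.0438). Among 24 antioxidant enzymes 2 fell (median -0.80), and of 77 genes of the mitochondrial ribosome 4 did (median -0.53), counts near or below the 6.42% of all genes tested that fell. Without WT-dim 1, WT-dim 2, WT-dim 3 or AS-dim 2 the cycle had 4, 4, 9 and 2 lower calls, fatty acid oxidation 6, 8, 9 and 5, lipid handling 1, 1, 5 and 3, glycolysis 1, 1, 2 and 0, the antioxidant enzymes 2, 2, 8 and 1 and the mitochondrial ribosome 1, 4, 7 and 1. Slc25a20 passed only without WT-dim 3, and none of these lists had a call without AS-dim 1 or AS-dim 3.

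**Figure D3:**
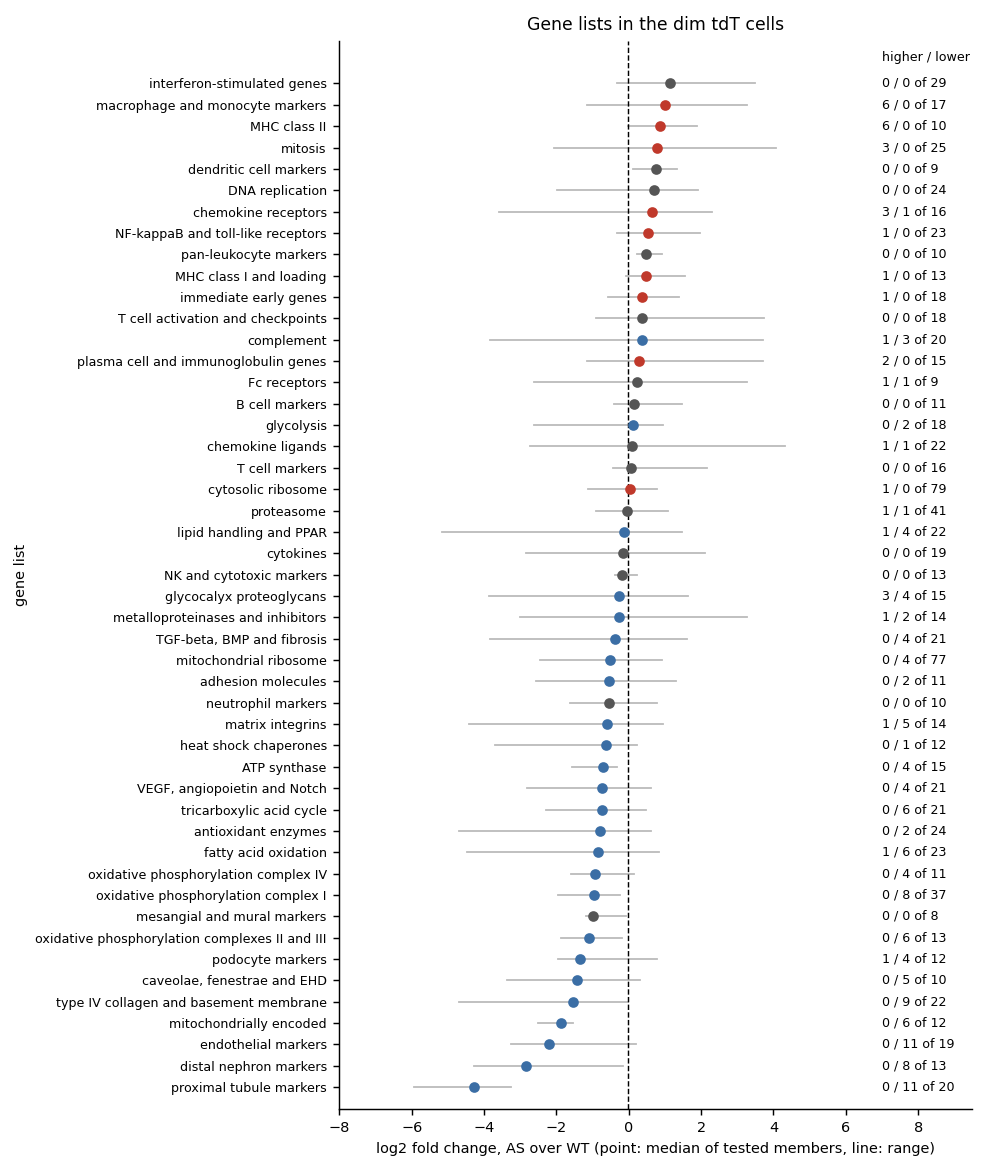
Median (point) and range (line) of the log2 fold change, AS over WT, of the tested members of each gene list with 8 or more of them, with the numbers called higher and lower at the right. Points are red where more members were called higher than lower, blue where more were called lower and grey otherwise, and the dashed line marks the median of all genes tested, -0.02. Proximal tubule, distal nephron and endothelial markers have the lowest medians, -4.28, -2.84 and -2.22, and the interferon-stimulated genes have the highest, 1.14, with no call.

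Genes of macrophages and monocytes were higher in the AS-dim libraries. Of 17 markers 6 rose and none fell, where 2.21% of all genes tested rose and 6.42% fell. Their median was 1.01, and their sums were 6095, 4978 and 9281 CPM in WT and 11194, 11000.4 and 14309 CPM in AS. Lyz2 (chromosome 10, 117277331 to 117282321, minus strand), the lysozyme of the myeloid lineage, had 3244, 2306 and 4017 CPM in WT and 5773, 5672 and 7589 CPM in AS (log2 fold change 0.99, SE 0.23, edgeR-adjusted p = 0.0403). Csf1r, the receptor through which macrophages are maintained, had 150.2, 111 and 160.1 CPM in WT and 370.4, 283 and 344 CPM in AS (log2 fold change 1.24, edgeR-adjusted p = 0.0206), and Adgre1, the mouse macrophage antigen F4/80, had 25.2, 34.95 and 29.7 CPM in WT and 69.4, 58.5 and 68.7 CPM in AS (log2 fold change 1.13, edgeR-adjusted p = 0.0277). Every AS mouse exceeded every WT mouse in these genes, as the groups were without overlap in every called gene. Mertk, a receptor for the uptake of dying cells and the 1 marker with a negative value, went the other way without overlap, with 18.2, 14.9 and 32.4 CPM in WT and 12.4, 9.404 and 7.34 CPM in AS, and did not pass (log2 fold change -1.16, edgeR-adjusted p = 0.112). Csf1r, Adgre1 and Mertk were named after their values were seen. Fcgr1, the high-affinity Fc receptor CD64 of monocytes, had 4.18, 9.88 and 5.83 CPM in WT and 42.6, 36.1 and 116 CPM in AS (log2 fold change 3.28, edgeR-adjusted p = 0.021), with AS-dim 3 far above the other AS libraries. Aif1, the calcium-binding protein IBA1, was low at 2.93, 2.19 and 1.25 CPM in WT and 7.86, 9.24 and 13.04 CPM in AS (log2 fold change 2.24, edgeR-adjusted p = 0.0339). Once WT-dim 1, WT-dim 2, WT-dim 3 or AS-dim 2 was left out, the number that rose was 3, 4, 8 and 2. It was 0 without AS-dim 1 and without AS-dim 3, with medians of 1.02 and 0.98. The endothelial sum fell in the same libraries, and a larger myeloid share and a smaller endothelial share cannot be told apart in CPM.

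The genes with the smallest adjusted p among those higher in AS held several genes known from myeloid cells. Lrp1 (chromosome 10, 127538161 to 127621148, minus strand), a scavenger receptor of macrophages and other cells, had 67.03, 87.1 and 85.5 CPM in WT and 231, 229 and 209 CPM in AS (log2 fold change 1.48, SE 0.19, edgeR-adjusted p = 0.0168). Cybb, the catalytic subunit of the phagocyte NADPH oxidase, had 558, 649 and 654 CPM in WT and 1363, 1208 and 1556 CPM in AS (log2 fold change 1.15, edgeR-adjusted p = 0.0185). Clec4a1, a lectin of myeloid cells, had 72.2, 76.9 and 94.4 CPM in WT and 210.5, 173 and 199.6 CPM in AS (log2 fold change 1.26, edgeR-adjusted p = 0.0197). Ctsc, the protease that activates the serine proteases of granules, had 411, 462 and 493 CPM in WT and 917, 904 and 1182 CPM in AS (log2 fold change 1.14, edgeR-adjusted p = 0.0197). These rises were 2.20- to 2.79-fold, and no AS value came near the WT values. Sec24b, a coat protein of vesicles that leave the endoplasmic reticulum, had 25.2, 20.3 and 19.99 CPM in WT and 63.1, 72.7 and 61.1 CPM in AS (log2 fold change 1.59, edgeR-adjusted p = 0.0185). Junb (chromosome 8, 84974484 to 84978718, minus strand), an AP-1 transcription factor, had 803, 737 and 602 CPM in WT and 1863, 1888 and 1833 CPM in AS (log2 fold change 1.38, edgeR-adjusted p = 0.0142), and it overlaps Prdx2 on the opposite strand. It was the only one of 18 immediate early genes that passed, and the median of that list was 0.37. None of these genes passed without AS-dim 1 or AS-dim 3.

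**Figure D4:**
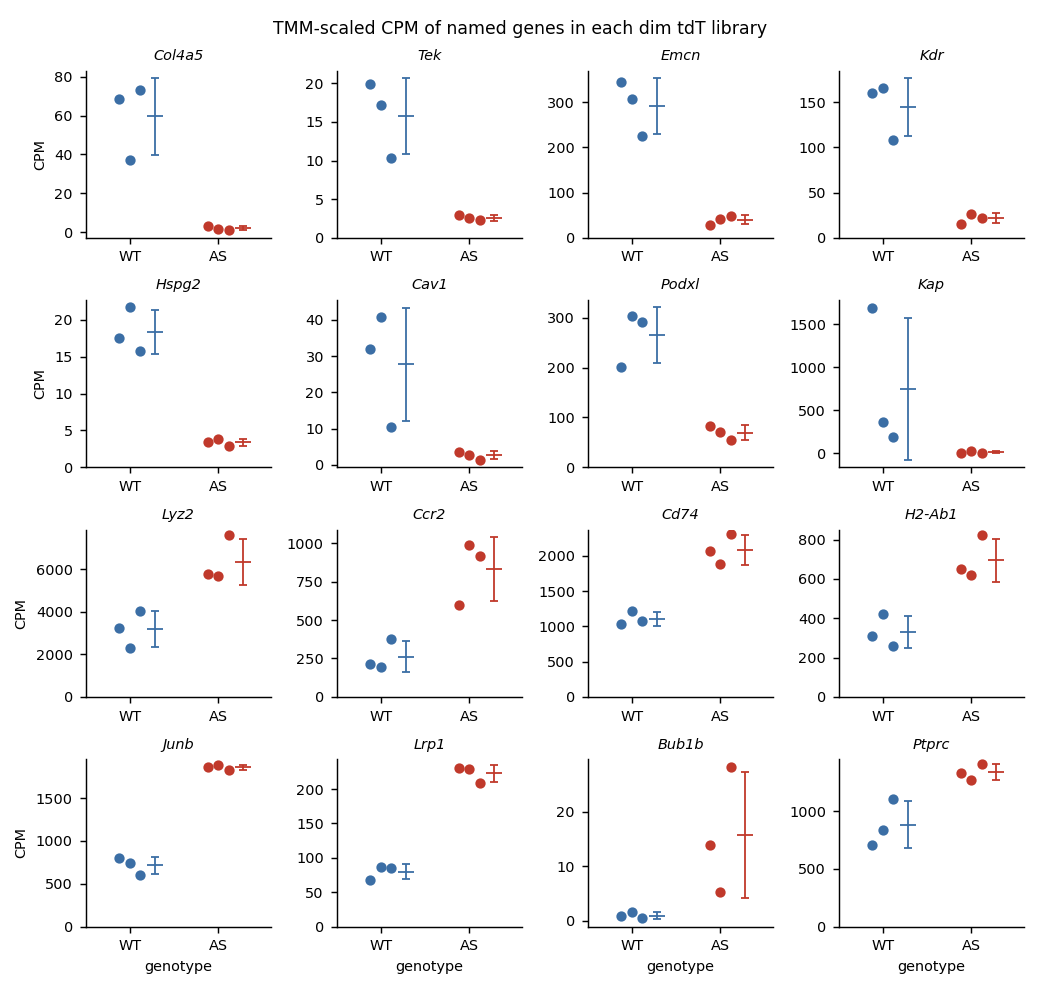
CPM of 16 genes in each of the 6 dim tdT libraries, with WT in blue, AS in red, and the mean and SD of 3 libraries beside the points. Each panel has its own scale. The WT libraries spread widely in Kap, and the AS libraries spread widely in Bub1b, while Junb, Lrp1, Emcn and Hspg2 are tight within both genotypes.

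Other leukocyte lists gave few or no calls by edgeR's quasi-likelihood test. T cell markers had none among 16 (median 0.06, 2 higher by DESeq2), and Trac, the constant part of the T cell receptor α chain, stood at 147, 161 and 107 CPM in WT and 127, 148 and 142 CPM in AS. NK and cytotoxic markers had none among 13 (median -0.18), with Gzmb at 376, 387 and 308 CPM in WT and 366, 406 and 489 CPM in AS. B cell markers had none among 11 (median 0.14, 1 higher by DESeq2), with Ms4a1, which encodes CD20, at 239.9, 213 and 536 CPM in WT and 321, 447 and 259.8 CPM in AS. For these lymphocyte genes the values of WT and AS overlapped. The B cell median was 0.52 without WT-dim 1 and 0.60, with 1 higher call, without WT-dim 3. Neutrophil markers had none among 10 (median -0.55), and Csf3r, the G-CSF receptor, stood out in WT-dim 3 at 260.5, 382 and 1016 CPM in WT and 468, 306 and 358 CPM in AS. Without WT-dim 3 the neutrophil median was 0.18 with 1 higher call, and without WT-dim 2 it was -0.80 with 1 lower call. Dendritic cell markers had none among 9, though all were above 0 (median 0.76), and 1 passed as higher without WT-dim 3 and 1 by DESeq2. Coro1a, an actin-binding protein and the pan-leukocyte marker with the highest mean count, had 5557, 3951 and 7310.2 CPM in WT and 7186, 6932 and 7264 CPM in AS (edgeR-adjusted p = 0.379). Among 15 plasma cell and immunoglobulin genes 2 rose, Ighg1 from 2.4004, 1.44 and 0.2499 CPM to 10.8, 29.02 and 7.03 CPM and Ighg2b from 1.78, 0.253 and 0.333 CPM to 15.1, 9.404 and 6.25 CPM (edgeR-adjusted p = 0.0368 and 0.0241), both constant regions of switched antibodies. Ighm, the unswitched μ chain, had 874, 585 and 1008 CPM in WT and 1269, 1339 and 879 CPM in AS and did not pass (edgeR-adjusted p = 0.246). Closely related immunoglobulin genes can share reads, so their split is uncertain. The number of this list that rose was 1, 2, 2 and 2 without WT-dim 1, WT-dim 2, WT-dim 3 or AS-dim 2, and 0 without AS-dim 1 or AS-dim 3.

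RNA of most listed genes for antigen presentation by MHC class II was higher in AS. Of 10 class II genes 6 rose, 4 did not pass and none fell, where 2.21% of all genes tested rose. Their median was 0.87, and their sums were 3729, 4159 and 3584 CPM in WT and 6873, 6282 and 7106 CPM in AS. Cd74, the invariant chain, had 1029, 1217 and 1079 CPM in WT and 2067, 1884 and 2306 CPM in AS (log2 fold change 0.91, SE 0.16, edgeR-adjusted p = 0.0217). H2-Ab1, a β chain of the class II dimer, had 309.8, 419.8 and 258 CPM in WT and 648, 619 and 821 CPM in AS (log2 fold change 1.08, edgeR-adjusted p = 0.0287), and H2-DMa, which helps to load peptides, had 76.01, 53.3 and 74.8 CPM in WT and 133, 138 and 145 CPM in AS (log2 fold change 1.03, edgeR-adjusted p = 0.0273). Each AS library was above each WT library, as the groups were without overlap in every called gene. Ciita, the transactivator of the whole class II group, was low but rose 3.69 times, with 4.18, 1.86 and 2.92 CPM in WT and 7.66, 14.4 and 11.1 CPM in AS (log2 fold change 1.89, edgeR-adjusted p = 0.0495). Class II genes belong to macrophages, dendritic cells and B cells alike. The macrophage sum was higher in every AS library and so was the dendritic cell sum, with 324, 379 and 414 CPM in WT and 589, 516 and 505 CPM in AS, though no dendritic cell marker passed. The B cell sums overlapped, and the part of these cells in the class II values was not tested. With WT-dim 1, WT-dim 2, WT-dim 3 or AS-dim 2 left out, the number of class II genes that rose was 3, 3, 5 and 1, and it was 0 without AS-dim 1 and without AS-dim 3 (medians 0.84 and 0.85). Class I genes, present in all nucleated cells, moved less, with 1 of 13 called higher and a median of 0.48. The called one was Psmb8, an immunoproteasome subunit, with 43.7, 57.2 and 43.7 CPM in WT and 92.8, 75.1 and 138 CPM in AS (log2 fold change 1.08, edgeR-adjusted p = 0.0489), and it passed neither under RLE scaling nor in any fit that left out a library (edgeR-adjusted p of 0.0693 to 0.175). H2-K1, a classical class I heavy chain, had 1651, 2206 and 1815 CPM in WT and 2637, 2314 and 2852 CPM in AS and did not pass (edgeR-adjusted p = 0.135).

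Among chemokine receptors 3 of 16 rose and 1 fell, where 2.21% of all genes tested rose and 6.42% fell. Ccr2 (chromosome 9, 124101950 to 124113557, plus strand), by which inflammatory monocytes follow CCL2, had 215, 194 and 378 CPM in WT and 598, 989 and 916 CPM in AS, a 3.18-fold rise (log2 fold change 1.67, edgeR-adjusted p = 0.023). Ccr6 had 7.82, 3.97 and 2.25 CPM in WT and 37.5, 17.8 and 13.5 CPM in AS (log2 fold change 2.31, edgeR-adjusted p = 0.0456). The receptor that fell was Ackr3, the scavenger of CXCL12 found on endothelium, with 17.9, 12.3 and 25.7 CPM in WT and 0.621, 3.41 and 0.781 CPM in AS (log2 fold change -3.58, edgeR-adjusted p = 0.0217). Of 22 chemokine ligands 1 rose and 1 fell, counts near those shares of all genes tested. Cx3cl1, the membrane-bound fractalkine of endothelium, fell from 35.7, 34.4 and 17.8 CPM to 5.93, 6.81 and 7.18 CPM (log2 fold change -2.14, edgeR-adjusted p = 0.0217). Ccl7, a monocyte attractant, rose from at most 2 counts per WT library to 23, 32 and 20 counts in the AS libraries (edgeR-adjusted p = 0.023). Ccr2 and Ccr6 are receptors of leukocytes, and Ackr3 and Cx3cl1 are known from endothelium. The receptors that rose numbered 2, 1, 3 and 1 without WT-dim 1, WT-dim 2, WT-dim 3 or AS-dim 2, and none passed without AS-dim 1 or AS-dim 3. The ligand Ccl7 passed without WT-dim 3 and Cx3cl1 without each WT library.

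Inflammatory signalling beyond the receptors gave few calls. No cytokine among 19 passed by edgeR's quasi-likelihood test (median -0.17). Without WT-dim 3 the median was 0.42 with 1 higher call, without WT-dim 2 it was 0.08 with 1 lower call, and DESeq2 called 1 in each direction. Il1b, interleukin-1β, had 1169, 2211 and 1894 CPM in WT and 2854, 2519 and 4014 CPM in AS (log2 fold change 0.83, edgeR-adjusted p = 0.0958). Of 23 genes of NF-kappaB and toll-like receptors 20 had positive log2 fold changes (median 0.53), and 1 passed. It was Casp1, the protease of the inflammasome, with 30.6, 32.6 and 24.99 CPM in WT and 54.97, 49.4 and 78.1 CPM in AS (log2 fold change 1.05, edgeR-adjusted p = 0.0464), and it passed in no fit that left out a library (edgeR-adjusted p of 0.0705 to 0.177). The list had 0, 0, 1 and 0 higher calls without WT-dim 1, WT-dim 2, WT-dim 3 or AS-dim 2. The 29 interferon-stimulated genes had the highest median of the lists, 1.14, with 28 above 0 and 0 called in the reported fit. DESeq2 called 5 of them higher and edgeR's likelihood ratio test 4. By the quasi-likelihood test 2 of these genes passed with all 12 libraries in 1 fit, 1 with the replicate block and 1 without AS-dim 2 (median 1.35). Their sums were 1178, 1421 and 1504 CPM in WT and 1750.1, 1509 and 4095 CPM in AS, with AS-dim 3 far above the other AS libraries, and without it the median was 0.52. Gbp5, a GTPase induced by interferon γ, had 2.76, 4.896 and 0.2499 CPM in WT and 10.1, 8.03 and 71.7 CPM in AS. Mx1, induced by interferon α, had 125, 83.3 and 152 CPM in WT and 217, 172 and 415 CPM in AS. Both were named after their values were seen and did not pass (edgeR-adjusted p = 0.0795 and 0.0839). In RefSeq promoters of this list the letters TTCNNTTTC of the interferon-stimulated response element, read on both strands, lay in 15 of 22 (68.2%) against 8.57% of all 27025. Complement and its regulators had 3 lower and 1 higher calls among 20, where 6.42% of all genes tested fell and 2.21% rose. C4b rose from 0.711, 0.253 and 0.167 CPM to 1.52, 4.297 and 9.45 CPM (edgeR-adjusted p = 0.0352), while the regulators Clu, Cd59a and Serping1 fell. Clu, clusterin, had 172, 504 and 304 CPM in WT and 31.2, 82.6 and 27.7 CPM in AS (log2 fold change -2.79, edgeR-adjusted p = 0.0241). Cd59a, which blocks the membrane attack complex, had 53.3, 30.8 and 23.5 CPM in WT and 10.8, 8.84 and 4.76 CPM in AS (log2 fold change -2.13, edgeR-adjusted p = 0.0283), and Serping1, the C1 inhibitor, had 24.3, 12.4 and 18.2 CPM in WT and 6.07, 1.05 and 2.498 CPM in AS (log2 fold change -2.47, edgeR-adjusted p = 0.0379). These regulators are known from epithelial and stromal cells. In fits without WT-dim 1, WT-dim 2, WT-dim 3 or AS-dim 2 the complement list had 1, 2, 3 and 1 lower and 0, 1, 3 and 0 higher calls, and it had none without AS-dim 1 or AS-dim 3.

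Integrins, the receptors by which cells hold to matrix and to each other, moved in both directions. Of 14 integrins that bind matrix, 5 fell and 1 rose (median -0.60), where 6.42% of all genes tested fell and 2.21% rose. Itga3, a subunit of the laminin receptor of podocytes, had 26.4, 37.2 and 19.8 CPM in WT and 12.2, 10.5 and 8.35 CPM in AS (log2 fold change -1.42, edgeR-adjusted p = 0.0439). Itgb5 had 439, 501 and 526 CPM in WT and 285, 225 and 173 CPM in AS (log2 fold change -1.10, edgeR-adjusted p = 0.0255), Itgb8 had 30.2, 10.3 and 16.5 CPM in WT and 5.104, 3.89 and 2.03 CPM in AS (log2 fold change -2.35, edgeR-adjusted p = 0.0375) and Itgb6, an epithelial subunit that activates TGF-beta, had 83.2, 17.8 and 22.5 CPM in WT and 0.552, 4.95 and 0.3903 CPM in AS (log2 fold change -4.43, edgeR-adjusted p = 0.0296). The subunit that rose was Itga5 of the fibronectin receptor, from 57.5, 54.3 and 42.6 CPM to 84.6, 95.5 and 118 CPM (log2 fold change 0.95, edgeR-adjusted p = 0.0411). Of 7 leukocyte integrins 2 rose and none fell (median 0.77), namely Itga4 from 106, 121 and 150.1 CPM to 210.1, 196 and 239.9 CPM and Itgb7 from 109, 82.5 and 73.1 CPM to 150.5, 153 and 185 CPM (edgeR-adjusted p = 0.0491 and 0.0431). These pair to form the homing receptor of lymphocytes and monocytes. The tissue inhibitors of metalloproteinases were called in both directions. Timp3, which binds to matrix, had 330.4, 117 and 97.4 CPM in WT and 15.9, 33.97 and 18.4 CPM in AS (log2 fold change -3.00, edgeR-adjusted p = 0.0223) and Timp2 had 154, 74.2 and 135 CPM in WT and 58.003, 41.7 and 50.4 CPM in AS (log2 fold change -1.27, edgeR-adjusted p = 0.0398), whereas Timp1, an inflammation-responsive inhibitor, rose from 0.267, 0.7598 and 0.333 CPM to 7.86, 2.27 and 3.12 CPM (log2 fold change 3.28, edgeR-adjusted p = 0.0321). Without WT-dim 1, WT-dim 2, WT-dim 3 or AS-dim 2 the matrix integrins had 2, 2, 5 and 2 lower calls, the leukocyte integrins 1, 0, 3 and 0 higher calls and the metalloproteinase list 1, 2, 3 and 1 lower calls. Itga5 passed in none of the fits that left out a library (edgeR-adjusted p of 0.0564 to 0.161), and Timp1 passed only without AS-dim 2 (edgeR-adjusted p of 0.0401 to 0.116). None passed without AS-dim 1 or AS-dim 3.

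The glycocalyx list, 15 proteoglycans and enzymes that build or cut them, had 4 lower and 3 higher calls. Of all genes tested 6.42% fell and 2.21% rose. Gpc4, a glypican, had 95.2, 27.9 and 34.9 CPM in WT and 1.38, 8.11 and 1.56 CPM in AS (log2 fold change -3.87, edgeR-adjusted p = 0.0248), and Sdc2, a syndecan, had 363, 85.4 and 169 CPM in WT and 15.5, 33.6 and 17.8 CPM in AS (log2 fold change -3.21, edgeR-adjusted p = 0.0217). Hyal2, a hyaluronidase anchored at the cell surface, had 17.9, 15.03 and 8.58 CPM in WT and 0.828, 3.16 and 2.81 CPM in AS (log2 fold change -2.63, edgeR-adjusted p = 0.0302). Among those that rose, Sdc3 had 19.2, 41.96 and 31.5 CPM in WT and 99.2, 83.9 and 107 CPM in AS (log2 fold change 1.65, edgeR-adjusted p = 0.023) and Hpse, the heparanase that cuts heparan sulphate chains and is made by leukocytes and platelets, had 157, 112 and 135 CPM in WT and 285, 289 and 386 CPM in AS (log2 fold change 1.25, edgeR-adjusted p = 0.0206). Cd44, the hyaluronan receptor, had 856, 1000.1 and 1423 CPM in WT and 2139, 1863 and 1861 CPM in AS (log2 fold change 0.84, edgeR-adjusted p = 0.0475). Sdc3, Hpse and Cd44 are known from leukocytes. The pan-leukocyte, macrophage, dendritic cell and immunoglobulin sums were higher in every AS library, while those of T cells, NK cells, B cells and neutrophils overlapped, and their part in these rises was not tested. The lower calls numbered 3, 2, 5 and 2 and the higher calls 2, 2, 3 and 1 without WT-dim 1, WT-dim 2, WT-dim 3 or AS-dim 2, and both were 0 without AS-dim 1 and without AS-dim 3.

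Genes of mitosis were read at low levels. Of 25 tested 23 had positive log2 fold changes (median 0.79), and 3 passed, all higher. Bub1b, a kinase of the spindle checkpoint, had 0.8002, 1.604 and 0.416 CPM in WT and 13.9, 5.27 and 28.2 CPM in AS, a 16.6-fold rise with wide spread in AS (log2 fold change 4.06, SE 0.82, edgeR-adjusted p = 0.0269). Tpx2, which builds the spindle, had 0.0889, 0.929 and 0.416 CPM in WT and 2.897, 2.76 and 2.65 CPM in AS (log2 fold change 2.49, edgeR-adjusted p = 0.0416), and Cdca8, a subunit of the chromosomal passenger complex, had 0.533, 0.591 and 0 CPM in WT and 4.28, 2.27 and 3.04 CPM in AS (log2 fold change 3.09, edgeR-adjusted p = 0.0329). Mki67, the proliferation antigen, had 2.49, 4.22 and 2.499 CPM in WT and 9.17, 8.43 and 9.91 CPM in AS without overlap but did not pass (log2 fold change 1.57, edgeR-adjusted p = 0.0571) and was named after its values were seen. DNA replication genes gave no call among 24 by edgeR's quasi-likelihood test (median 0.68), though DESeq2 and edgeR's likelihood ratio test each called 1 in each direction and the quasi-likelihood test without WT-dim 2 called 1 higher. Once WT-dim 1, WT-dim 2, WT-dim 3 or AS-dim 2 was left out, the mitosis list had 0, 1, 1 and 1 higher calls, with 1 lower call without WT-dim 1, and it had no call without AS-dim 1 or AS-dim 3.

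Promoters of Bub1b and Cdca8, called mitosis genes, are shown because cell cycle genes are known to share a CHR element, TTTGAA, and CCAAT boxes read by NF-Y. Of the 32 listed genes 27 had a RefSeq promoter of GRCm38.p6, and TTTGAA, read on both strands, lay in 20 of the 27 (74.1%) against 18.1% of the 27025 genes with a promoter. CCAAT lay in 21 of the 27 (77.8%) against 37.9%. Bub1b lies at chr2:118597961-118598260 on the plus strand and Cdca8 at chr4:124936868-124937167 on the minus strand. Capitals mark TTTGAA and ATTGG, the latter being CCAAT on the other strand. In Cdca8 the last CCAAT box shares 1 base with TTTGAA, so that the run reads TTTGAATTGG, and 3 further boxes lie before it. The shares describe the list and were not set beside the change of its members.
Bub1b: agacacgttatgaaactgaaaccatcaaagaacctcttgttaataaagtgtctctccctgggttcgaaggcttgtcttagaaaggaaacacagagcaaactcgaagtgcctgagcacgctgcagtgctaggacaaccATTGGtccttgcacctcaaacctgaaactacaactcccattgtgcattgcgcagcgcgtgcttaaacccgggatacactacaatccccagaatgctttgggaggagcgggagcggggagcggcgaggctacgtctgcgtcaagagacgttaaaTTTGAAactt
Cdca8: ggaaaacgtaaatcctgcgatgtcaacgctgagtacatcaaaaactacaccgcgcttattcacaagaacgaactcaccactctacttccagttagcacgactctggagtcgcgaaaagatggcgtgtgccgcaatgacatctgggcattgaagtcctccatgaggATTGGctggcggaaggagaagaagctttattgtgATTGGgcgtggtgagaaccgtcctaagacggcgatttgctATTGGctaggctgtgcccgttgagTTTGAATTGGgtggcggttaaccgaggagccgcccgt

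Housekeeping and stress genes gave few calls. Of 79 genes of the cytosolic ribosome 1 passed, Rpl13 with 147, 129 and 104 CPM in WT and 217, 194 and 240.1 CPM in AS (log2 fold change 0.78, edgeR-adjusted p = 0.0475), and the median was 0.03. The proteasome had 1 higher and 1 lower call among 41 (median -0.06). These counts lie near or below the 2.21% of all genes tested that rose and the 6.42% that fell. Of 12 heat shock chaperones only Hspb1, the small chaperone HSP27, passed, with 85.1, 126 and 26.6 CPM in WT and 4.28, 5.43 and 8.67 CPM in AS (log2 fold change -3.70, edgeR-adjusted p = 0.0206). In the list of TGF-beta, BMP and fibrosis 4 of 21 fell (median -0.40). Bmp6, a ligand made by endothelium, had 134, 37.2 and 26.98 CPM in WT and 1.72, 10.6 and 1.87 CPM in AS (log2 fold change -3.83, edgeR-adjusted p = 0.0342) and Tgfb2 had 30.4, 16.3 and 7.66 CPM in WT and 3.45, 2.43 and 2.81 CPM in AS (log2 fold change -2.63, edgeR-adjusted p = 0.0352). Fn1, fibronectin, had 572, 345 and 1123 CPM in WT and 1518, 1723 and 1329.7 CPM in AS, above WT in every AS mouse, and did not pass (log2 fold change 1.16, edgeR-adjusted p = 0.0952). Leaving out WT-dim 1, WT-dim 2, WT-dim 3 or AS-dim 2 gave 2, 2, 6 and 3 lower calls in that list and 1, 1, 3 and 1 among the chaperones, and 2 genes of the TGF-beta list passed as higher without WT-dim 3. None of these lists held a call without AS-dim 1 or AS-dim 3. Further called members of short lists, named here after their values were seen and all lower in AS, included Ehd2 of the caveolae list, Dll4 of the Notch ligands, Thsd7a of podocytes, Sdc4 of the glycocalyx, Id1 of the TGF-beta list, Pigr of the Fc receptors, Pfkm of glycolysis, Gclm and Txn2 of the antioxidant enzymes, Psmd5 of the proteasome, Fabp3 and Ppargc1a of lipid handling, Cox4i1, Cox6b1 and Cox7a2 of complex IV, Atp5a1, Atp5g3 and Atp5o of the ATP synthase and Mrpl1, Mrps18a, Mrps21 and Mrps35 of the mitochondrial ribosome.

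Outside the lists, the extremes of the ranking were genes of low count or of tubule. Hunk, a kinase, had 4.89, 2.36 and 4.497 CPM in WT and 0, 0 and 0 CPM in AS, so that it was at least 17.2-fold lower against a floor of 3 counts per library (edgeR-adjusted p = 0.0244). Adamts15, a secreted protease that cuts proteoglycans, had 23.6, 5.49 and 2.33 CPM in WT and 0.207, 0 and 0 CPM in AS (edgeR-adjusted p = 0.0315), and Rgn, the calcium-binding regucalcin of liver and kidney, had 21.2, 3.12 and 3.66 CPM in WT and 0.138, 0.0811 and 0.0781 CPM in AS (edgeR-adjusted p = 0.0233). Their AS libraries held 3 and 2 counts at most. Vnn1, the pantetheinase of the proximal tubule, had 76.5, 5.49 and 76.5 CPM in WT and 0.138, 1.78 and 0.0781 CPM in AS (log2 fold change -6.36, edgeR-adjusted p = 0.0229) and Mfsd4b5, a transporter gene, had 322, 65.2 and 104 CPM in WT and 0.966, 5.76 and 1.09 CPM in AS (log2 fold change -6.01, edgeR-adjusted p = 0.0179). WT-dim 2 was low in Vnn1, and WT-dim 1 was highest in Adamts15 and Rgn. Among the genes that rose, Dnaaf3, an assembly factor of ciliary dynein, had 0.356, 1.604 and 1.83 CPM in WT and 11.7, 8.19 and 20.5 CPM in AS (log2 fold change 3.38, edgeR-adjusted p = 0.024), and the septin Sept3 had 0, 0.675 and 0.333 CPM in WT and 6.76, 5.76 and 2.97 CPM in AS (log2 fold change 3.89, edgeR-adjusted p = 0.0217). Gm38319, annotated as a transcript to be experimentally tested that lies on the same strand within Lactb2, had 0.178, 0.253 and 0.2499 CPM in WT and 2.897, 4.702 and 5.31 CPM in AS (edgeR-adjusted p = 0.0128), and its reads cannot be told from those of Lactb2 by the annotation alone.

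The fall of endothelial and matrix genes was set against the bright tdT cells of the same mice. The difference between the AS over WT effects of the dim and bright cells was tested on 15084 genes in 1 fit of all 12 libraries. It passed for 569 genes, 3.77%, of which 446 were lower and 123 higher in the dim effect, and with the mouse as a block for 877 (646 lower and 231 higher). Of the 1209 genes called in the dim cells that could be tested there, 348 had such a difference. The 569 genes included 13 of 20 endothelial markers, 12 of 21 basement membrane genes and 6 of 12 podocyte markers, against 1 of 20 proximal tubule and 0 of 16 distal nephron markers and 0 of 9 MHC class II genes. With the mouse as a block these lists had 14, 13, 5, 9, 1 and 0 calls, all with the smaller or more negative effect in dim cells, so the proximal tubule count rests on the pairing. Genes described above that passed for the difference only with the block were Ehd3, Sdc2, Gpc4, Slc27a2, Slc34a1, Umod, mt-Co1, Ndufa8, Suclg2, Tpi1, Hspb1, Mfsd4b5 and Vnn1. Kdr averaged 1655 CPM in WT-bright and 2809 CPM in AS-bright, where its log2 fold change was 0.76 (edgeR-adjusted p = 0.147), and the difference, dim minus bright, was -3.55 (SE 0.40, edgeR-adjusted p = 0.00222). Perlecan, Hspg2, averaged 197 CPM in WT-bright and 354 CPM in AS-bright and differed by -3.32 (SE 0.35, edgeR-adjusted p = 0.00222). Col4a1 and Col4a2 rose in the bright cells, by log2 fold changes of 1.46 and 1.59 (edgeR-adjusted p = 0.0345 and 0.0291), while their dim values were -1.43 and -1.04. Tubular genes had negative values in both sorts. Kap averaged 310.3 CPM in WT-bright and 33.9 CPM in AS-bright (log2 fold change -3.18, edgeR-adjusted p = 0.163), and its difference between the sorts had an adjusted p of 0.44, or 0.0546 with the block. No marker covariate was a term of this fit. Leaving out 1 of the 12 libraries gave 252 to 857 genes for the difference, with the fewest without AS-bright 1 and the most without WT-dim 3.

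**Figure D5:**
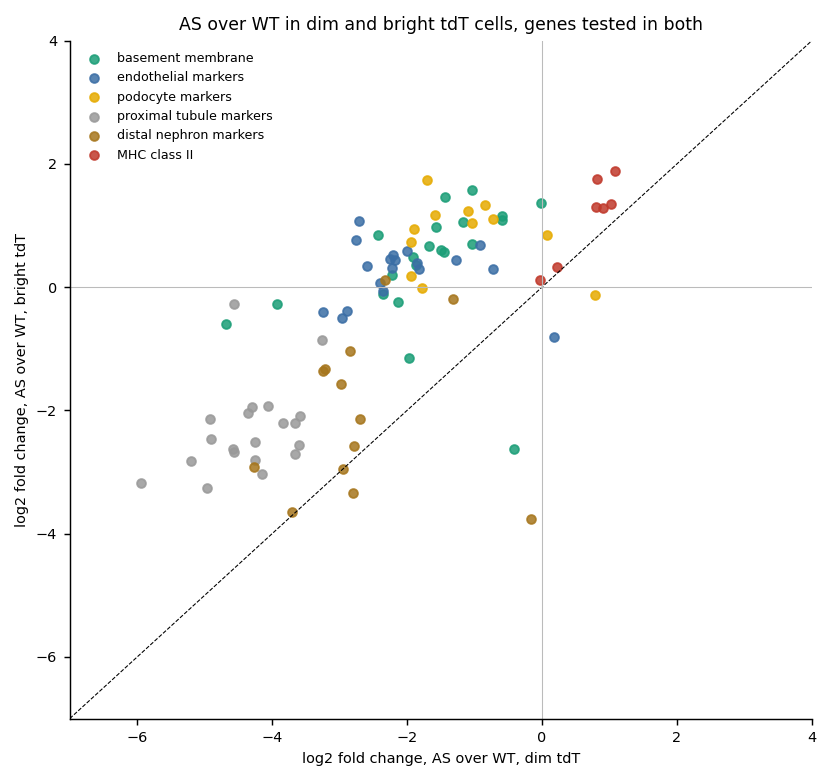
Log2 fold change of AS over WT in the dim tdT cells (horizontal) and in the bright tdT cells (vertical) for the members of 6 gene lists that were tested in both, each sort normalized on its own. On the dashed line both are equal. Most endothelial, basement membrane and podocyte genes lie left of and above the line, below 0 in the dim and near or above 0 in the bright cells, and the proximal tubule markers are below 0 in both.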

How the data were processed

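RNA-seq of sorted dim and bright tdT cells was available from 3 WT and 3 AS mice. The deposited raw counts per gene were made by the authors from reads aligned to build GRCm38.p5 and assigned to Gencode M16 genes. The submitters' processing notes name FastQC 0.11.5, STAR 2.6.0c, cutadapt, Trimmomatic and edgeR. The authors also filtered rows by a rule not stated and did not pool replicates. The study's methods name a stranded library kit. The strand used for counting was not given in the sources used here, so genes that overlap cannot be told apart. RPKM columns and the authors' own fold changes, likelihood ratios, p-values and FDR were not used.

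The 92 ERCC rows were dropped. Genes passing filterByExpr were scaled by TMM and tested with edgeR 4.0.16 (glmQLFit and glmQLFTest, limma 3.58.1, R 4.3.3), and p-values were adjusted by Benjamini-Hochberg with calls made under 0.05. Shares and medians of a list describe it, and no set test was run. The difference between dim and bright effects was the interaction in a fit of all 12 libraries. Deviations of the dim and bright libraries of a mouse from their group means correlated by 0.205 on average (0.0796 to 0.385). The mean between mice of a genotype was -0.102. Deviations cancel within a group, so that value follows from the first and is no separate comparison. The mouse number of the labels gave the block. Alternatives were RLE scaling, library sizes alone, DESeq2 1.42.0, the likelihood ratio test, filters, the replicate block and leaving out each library. Further alternatives took the mean log2 CPM of a marker list as a covariate. Scripts were tested on simulated data. No library was a copy of another, since counts of replicates gave chi-square values of 29.5 to 104 for each degree of freedom. Positions of genes come from Gencode M21, which uses build GRCm38.

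The gene lists and the comparison were chosen with earlier results of these data known. Genes were named by a rule. It took Col4a5 and Tek, and from each list the up to 3 members called in each direction with the largest change among those with an average logCPM above 0, and the member with the highest average logCPM. It further took the 10 highest and 10 lowest log2 fold changes among called genes whose groups did not overlap and whose average logCPM was above 1, and the 10 smallest adjusted p in each direction. The text gives a choice of these. Some genes that the rule or a comparison would name are not reported here. Another 14 genes with values, and the called members listed by name alone, were named after their values were seen.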

Additional observations from a re-analysis of the deposited data

Results flagged for a closer look

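For 43 of the genes described above the AS over WT effect differed between the dim and the bright tdT cells (interaction term of edgeR's quasi-likelihood test over 12 libraries, adjusted p under 0.05). In each the dim effect was the lower one. The values that follow are log2 differences, dim minus bright.

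Among endothelial genes, the dim effect was lower for Tek (-2.96), Emcn (-2.52), Kdr (-3.55), Eng (-2.76), Ptprb (-2.48), Sox17 (-2.89), Pecam1 (-1.64), Plat (-3.15), Epas1 (-2.04), Tm4sf1 (-2.51), Exoc3l2 (-2.82), Lpl (-1.53), Ly6c1 (-2.49) and Meis2 (-2.20). Kdr, Tek, Eng, Pecam1 and Plat had positive log2 fold changes in the bright cells, none of which passed there. Genes of caveolae, adhesion and endothelial ligands or receptors differed in the same direction, Cav1 (-3.98), Cavin2 (-2.94), Cavin3 (-2.73), Icam2 (-1.52), Jam3 (-2.87), Vegfd (-3.53), Cx3cl1 (-2.98), Ackr3 (-4.76) and Bmp6 (-3.55).

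Of the collagen IV and basement membrane genes, Col4a5 (-4.14), Col4a1 (-2.92), Col4a2 (-2.66), Col4a3 (-2.25), Col4a4 (-2.28), Hspg2 (-3.32), Lama3 (-3.68) and Sparc (-2.58) had the lower dim effect. With the mouse as a block Lama3 was the only one of the 43 that no longer passed (log2 difference -3.62, edgeR-adjusted p = 0.0697). Col4a1 and Col4a2 were called higher in the bright cells, so that their directions were opposite in the dim and bright cells, although the dim values did not pass on their own.

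Podocyte and matrix-related genes differed by like amounts, Podxl (-2.15), Wt1 (-2.73), Aif1l (-2.29), Itga3 (-2.22), Timp2 (-1.51), Timp3 (-3.64) and Hyal2 (-3.37). Complement regulators differed as well, Clu (-3.16), Cd59a (-1.84) and Serping1 (-3.09), and so did metabolic enzymes, Idh2 (-1.81) and Ehhadh (-4.18). The macrophage and MHC class II genes described above are not among the 43.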

How the results depend on the processing

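The 1263 genes stayed within 1.5 times under RLE scaling (1256), library sizes alone (1241), no filter (964), an average logCPM above 1 (1194) and, chosen after seeing the data, with ERCC rows kept (1263). They became 2213 with DESeq2's Wald test (1197 shared), 1946 with edgeR's likelihood ratio test (1259 shared), 2106 with all 12 libraries in 1 fit (1153 shared) and, also chosen after seeing the data, 582 with the version 3 form of the quasi-likelihood test (578 shared), under which 72 of the 111 called genes with values in the text passed. With the mean log2 CPM of the proximal tubule, pan-leukocyte or endothelial markers as a covariate 1, 41 and 0 genes passed. At an unadjusted p under 0.05 there were 919, 2525 and 1409. Leaving out a library gave 0 to 1825 genes. The difference between dim and bright effects, 569 genes, became 1186 with DESeq2 and 252 to 857 without a library, and was 546, 488, 572 and 449 with RLE scaling, library sizes alone, no filter and version 3. The cause of these shifts was not tested, except that fits without a library rest on 1 sample fewer.

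With the replicate number as a replicate block across WT and AS 494 genes passed (63 higher, 431 lower, 462 shared). Deviations of same-numbered libraries correlated by -0.116, -0.0911 and 0.0598, so the numbers pair no mice between genotypes. In the difference between dim and bright cells, where the number is the mouse, the replicate block gave 877 genes (538 shared).

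Directions of the called genes with values in the text held under the alternatives that tested them, except the endothelial covariate. There the log2 fold changes had the opposite sign for Eng 0.33, Sox17 2.01, Ehd3 3.19, Cav1 1.07, Cavin3 2.14, Jam3 0.89, Cx3cl1 0.58, Sparc 0.13, Itga3 0.19, Timp1 -1.12, Hyal2 0.82, Cd44 -0.72, Kap 0.40, Slc22a6 0.19, Pvalb 1.13, mt-Nd4 0.017, Ndufa4 0.19, Cox6c 0.25, Apom 4.38, Lyz2 -0.37, Csf1r -0.10, Hspb1 2.75, Bmp6 0.70 and Tgfb2 0.32, and none of them passed. Of the 19 endothelial markers tested 18 had negative log2 fold changes, so this covariate and genotype cannot be told apart in full. The signs in that fit are therefore not estimates of the genotype effect alone.

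Counts moved more than the total in some lists and less in others. Version 3 left 10 of 11 calls among endothelial markers, 7 of 9 among basement membrane genes and 6 of 8 in complex I. Under version 3 and with no filter no call was left among the leukocyte integrins, glycolysis, proteasome and mitochondrially encoded genes, nor under version 3 among the immunoglobulin genes. Version 3 also left 1 of 11 calls among proximal tubule markers, 2 of 8 among distal nephron markers, 2 of 6 among matrix integrins and 4 of 7 in the glycocalyx, and no filter left 2 of 4 in complex IV and 2 of 5 in lipid handling. Both left 1 of 4 in the mitochondrial ribosome. With the replicate block across genotypes 7 of 11 endothelial and 2 of 11 proximal tubule markers passed, and no gene of MHC class II, mitosis, the matrix and leukocyte integrins, the adhesion molecules or the mitochondrial genome. Without WT-dim 3 the adhesion molecules, glycolysis and antioxidant lists each had 1 higher call beside their lower ones, and the immediate early genes had 1 lower call.

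With 3 mice a group and AS-dim 1 and AS-dim 3 each needed for nearly all calls, the data limit which single genes can be called. Genes near the floor of 3 counts per library, 0.257 CPM in WT and 0.228 CPM in AS, have folds that depend on the prior count. The floors cover counting error only.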

Other observations

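Lists for other blood and stromal cells were read at low depth. The 5 platelet markers tested gave no call, with a median log2 fold change of 0.49. The 7 present in the dim tdT table summed to 19.2, 17.6 and 16.8 CPM in WT and 21.7, 28.5 and 19.8 CPM in AS. Erythroid markers, 3 tested, gave none either. The 5 present summed to 41.9, 25.6 and 8.83 CPM in WT and 19.2, 24.97 and 30.6 CPM in AS. Of the 7 fibroblast markers 2 were in the table, both were tested, and their sums were 32.01, 50.6 and 86.95 CPM in WT and 28.3, 17.8 and 29.5 CPM in AS. The values of WT and AS mice overlapped for the erythroid markers.

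Among 9 Fc receptors Fcgr1 rose, as described with the macrophage genes, and Pigr, the epithelial receptor that carries antibodies into secretions, fell. The median of that list was 0.22. The 18 genes of T cell activation and checkpoints gave no call in the reported fit, with 14 above 0 and a median of 0.37. The fit without WT-dim 2 called 1 higher (median 0.56). DESeq2 called 1 in each direction, and the likelihood ratio test and the fit of all 12 libraries each called 2 higher.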
